A study of Bos taurus with 8 samples.

Results

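Long-chain fatty acid oxidation genes of the mitochondrion were examined in the rumen papillae of 4 dairy cattle, each of which was studied on both a low-concentrate diet (LC) and a high-concentrate diet (HC). Concentrate made up 40% of the LC feed and 70% of the HC feed. The genes were 10 enzymes chosen by name: CPT1A, CPT1B, CPT2, ACADM, ACADL, ACADVL, HADHA, HADHB, ECHS1 and HADH. A probe was taken for a gene where the RefSeq accession printed for it on the array belongs to that gene in the RefSeq gene table. This gave 7 probes of 6 genes, of 21475 probes and 7788 named genes in all, with 2 probes for HADHA and 1 each for CPT1B, CPT2, ACADM, ACADL and ACADVL. No probe was matched to CPT1A, HADHB, ECHS1 or HADH, so these 4 genes have no value here. Below, a gene is said to have a probe where one was matched in this way, and probes under other names were not searched.

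The animals were female, lactating, ruminally cannulated Holstein cattle, with no genetic change and no treatment other than the feed. Each cow gave 1 papillae sample per diet, which makes 4 arrays per diet and 8 in all, each a single-colour bovine oligonucleotide array. Cows 1 and 2 were fed LC in period 1 and HC in period 2, and cows 3 and 4 had the reverse order. The 4 arrays of a period lay on 1 slide, and thus the effects of slide and of period cannot be told apart. The n of 4 per diet stands for the same 4 cows. The main fit held no term for cow, so its p values and intervals also carry the spread between cows. They rest on each gene's spread among the arrays, drawn towards a spread shared by all probes.

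Beta-oxidation shortens a fatty acid by steps, and each step gives acetyl-CoA and reduced electron carriers. A long-chain fatty acid is first joined to coenzyme A, and the acyl group crosses the mitochondrial membranes on carnitine. Carnitine palmitoyltransferase 1 loads it onto carnitine at the outer membrane, a carrier moves it inside, and carnitine palmitoyltransferase 2 returns it to coenzyme A. Acyl-CoA dehydrogenases of different chain-length preference then take the first step, and the trifunctional protein carries out the later steps on long chains. Rumen epithelium is best known for taking up short-chain fatty acids and for oxidising butyrate and making ketone bodies from it. Short chains do not need the carnitine route in the way that long chains do.

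By the test of the scanner software, each of the 7 probes stood well above background in all 8 samples. Per array, 76.9 to 81.2% of all probes passed that test. The labelled tissue, a keratinised squamous epithelium on a connective tissue core, was checked with marker genes. Of 13 squamous epithelium markers, 7 had a probe and 6 of these were well above background on all arrays, KRT14, KRT6A and IVL among them, whereas the TP63 probe passed on no array. All 7 smooth muscle markers and all 5 fibroblast markers were also above background on every array. In such bulk samples fewer cells of a type and less RNA per cell cannot be told apart. None of the marker genes with a probe passed the thresholds for diet that are given with the first comparison.

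The first comparison asked whether the oxidation genes differed between HC and LC. None of the 6 measured genes passed the thresholds for diet, and their unadjusted limma p ran from 0.213 to 0.964. A gene was counted as changed where the limma fold reached 1.5 in either direction with an unadjusted p under 0.05, the thresholds of the study's methods. Over all probes 198 of 21475, or 0.922%, met both, 106 higher and 92 lower on HC. The smallest adjusted p (limma, Benjamini-Hochberg) over all probes was 0.412, and it was 1.00 for each of the 6 genes. Values below are normalized log2 signals, on which a difference of 1 is a doubling, and levels of different genes are not compared because each has its own probe.

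CPT1B (NM_001034349), the form of carnitine palmitoyltransferase 1 best known from muscle, stands at the entry step. Its log2 signal in cows 1 to 4 was 7.20, 7.89, 7.83 and 7.51 on LC and 7.14, 7.61, 8.12 and 7.63 on HC. Cow 1 was lowest on both diets and the diets overlapped almost wholly. The mean was 7.61 ± 0.32 on LC and 7.62 ± 0.40 on HC (SD, n = 4). The difference, HC minus LC, was 0.02 (SE 0.22, limma p = 0.944, exact two-sided permutation p = 0.943). Its 95% confidence interval ran from -0.51 to 0.54, which is 0.70-fold to 1.46-fold, the widest among the 6 genes. The other form, CPT1A, known from liver and many other tissues, is not analysed here, so the level of the entry step as a whole is not given.

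CPT2 (NM_001045889), which restores the acyl-CoA inside the mitochondrion, was slightly lower on HC in every cow. The log2 signal was 12.17, 12.19, 12.14 and 12.45 on LC and 12.10, 12.06, 12.08 and 12.17 on HC in cows 1 to 4. Cow 4 on LC was the highest array, and the lowest LC array lay below the highest HC array. The mean was 12.24 ± 0.14 on LC and 12.10 ± 0.05 on HC (SD, n = 4). The difference was -0.13 (SE 0.10, limma p = 0.235, exact permutation p = 0.0857), with a 95% interval of 0.77-fold to 1.08-fold. It was -0.06 without cow 4 on LC and -0.21 without cow 3 on LC. The smallest p that 4 arrays against 4 can give in the permutation test is 0.0286, reached only where the diets do not overlap at all. The test took all 70 regroupings of the arrays and paid no regard to cow. Exact means here only that every regrouping was counted. Since the same 4 cows had both diets, the arrays are not independent. The permutation p values of all genes are thus not exact for this design, and they are given as a description.

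**Figure D1:**
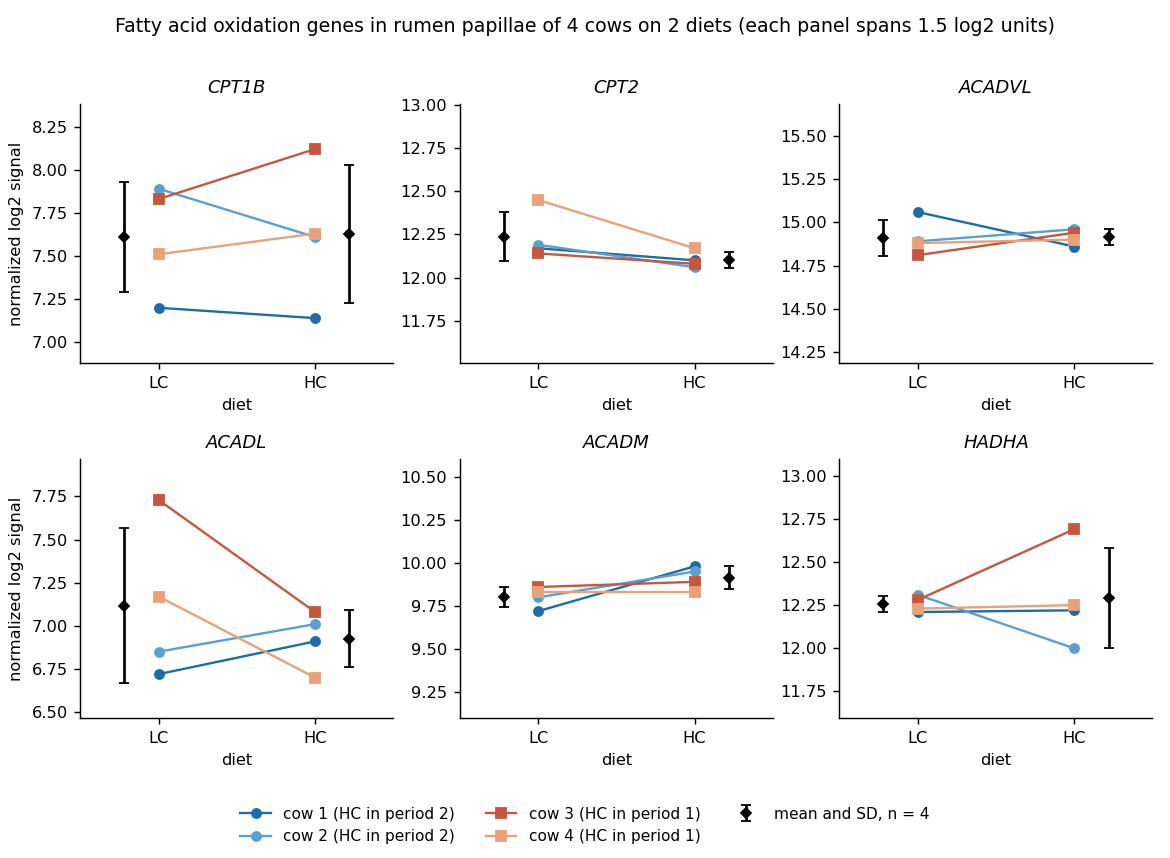
Normalized log2 signal (y axis) of the 6 measured genes on the LC and the HC diet (x axis), with a line for each cow, circles for cows 1 and 2, squares for cows 3 and 4, and black diamonds for the mean and SD of the 4 cows. The diets overlap in every panel, CPT2 is slightly lower on HC in all 4 cows, and the ACADL lines of cows 1 and 2 slope against those of cows 3 and 4.

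The acyl-CoA dehydrogenases take the first step of each round. ACADVL (NM_174494), the very-long-chain enzyme, had log2 signals of 15.06, 14.89, 14.81 and 14.88 on LC and 14.86, 14.96, 14.94 and 14.90 on HC. All 8 arrays lay within 14.81 to 15.06, and the highest and the lowest of them were both LC. The mean was 14.91 ± 0.11 on LC and 14.92 ± 0.04 on HC (SD, n = 4). The difference of 0.00 had an SE of 0.09 and a 95% interval of 0.86-fold to 1.16-fold (limma p = 0.964, exact permutation p = 0.971). A change of 1.5-fold lay outside this interval, as it did for the other 5 genes, though only narrowly for ACADL.

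ACADL (NM_001076936), the long-chain enzyme, gave 6.72, 6.85, 7.73 and 7.17 on LC and 6.91, 7.01, 7.08 and 6.70 on HC. Cow 3 on LC was the highest array and cow 4 on HC the lowest. In cows 1 and 2 HC was above LC, by 0.19 and 0.16, and in cows 3 and 4 it was below, by -0.64 and -0.46. The mean was 7.11 ± 0.45 on LC and 6.93 ± 0.16 on HC (SD, n = 4), a difference of -0.19 (SE 0.16, limma p = 0.282, exact permutation p = 0.543). This difference depended on single arrays, and it was -0.05 without cow 3 on LC and -0.33 without cow 4 on LC.

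ACADM (NM_001075235), the medium-chain enzyme, which takes over once a chain has been shortened, had the smallest spread on LC after HADHA. It gave 9.72, 9.80, 9.86 and 9.83 on LC and 9.98, 9.95, 9.89 and 9.83 on HC. The HC value was above the LC value in all 4 cows, although in cow 4 the difference was 0.00 to 2 decimals, and the diets overlapped between 9.83 and 9.86. The mean was 9.80 ± 0.06 on LC and 9.91 ± 0.06 on HC (SD, n = 4). The difference was 0.11 (SE 0.08, limma p = 0.213, exact permutation p = 0.0571), with an interval of 0.94-fold to 1.24-fold.

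HADHA (NM_174335) encodes the alpha subunit of the trifunctional protein, which holds the hydratase and the 3-hydroxyacyl-CoA dehydrogenase for long chains. Its brighter probe gave 12.21, 12.31, 12.28 and 12.23 on LC in cows 1 to 4, and 12.22, 12.69 and 12.25 on HC in cows 1, 3 and 4. In cow 2 the HC array was the lowest of all, with HC minus LC at -0.31. The LC arrays were close together, and the highest array was cow 3 on HC. The mean was 12.26 ± 0.04 on LC and 12.29 ± 0.29 on HC (SD, n = 4). The difference was 0.03 (SE 0.13, limma p = 0.802, exact permutation p = 0.886), with an interval of 0.83-fold to 1.27-fold.

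The other HADHA probe read 11.28, 11.29, 11.32 and 11.24 on LC and 11.23, 11.14, 11.66 and 11.14 on HC. Cow 3 on HC was the highest array on both probes. The difference of this probe was 0.01 (SE 0.13, limma p = 0.932, exact permutation p = 1.00). The beta subunit HADHB, which holds the thiolase, and the shorter-chain enzymes ECHS1 and HADH had no matched probe.

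As a group, 4 of the 6 genes had a higher mean on HC and 2 a lower one, and the median log2 difference was 0.01, against 0.00 over all probes. The median absolute difference was 0.07, against 0.08 over the 16030 probes that every array measured well above background. The diets overlapped in all 6 genes, and 1.60% of all probes did not overlap. The difference had 1 direction in all 4 cows for 2 genes, CPT2 and ACADM, where 11.0% of all probes did. Removing any 1 array brought none of the 6 past the thresholds.

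In 4 of the 6 genes the largest share of the variation lay between cows. Of the variation of CPT1B over the 8 arrays, 88.4% of the sum of squares lay between cows and 0.0640% between diets. The between-cow share was 54.3% for ACADL, 52.1% for CPT2, 48.2% for HADHA and 23.7% for ACADVL, against a median of 52.9% over those 16030 probes. In ACADVL 53.7% lay in the rest, within cows and apart from diet and period. ACADM had 5.46% between cows, 51.6% between diets and 36.5% between periods. Cows take 3 of the 7 degrees of freedom and diet takes 1, so these shares are not on an equal footing, and they are given as a description. The diet share of CPT2 was 33.8%, and that of ACADL, HADHA and ACADVL was 9.27, 0.852 and 0.0845%, against a median of 5.12% over the same probes.

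**Figure D2:**
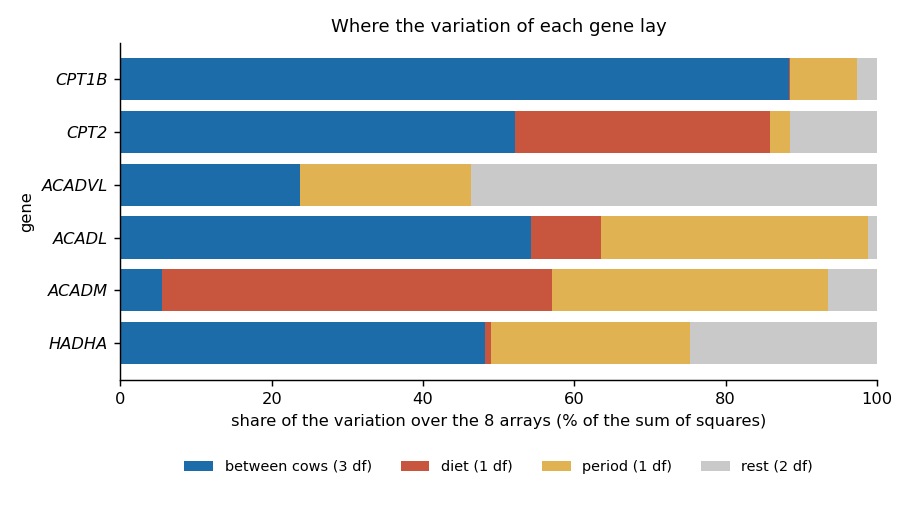
Share of each gene's sum of squares over the 8 arrays (x axis, percent) that lay between cows, between diets, between periods and in the rest, for the 6 measured genes (y axis). The between-cow part is the longest in CPT1B, at 88.4%, and the shortest in ACADM, at 5.46%.

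The second comparison was between the periods, and it is also the comparison between the 2 slides. No gene of the 6 met the thresholds for period, while 3.86% of all probes did. ACADL was nearest, with a log2 difference, period 2 minus period 1, of 0.37 (SE 0.16, limma adjusted p = 0.440) and an unadjusted p of 0.0596. It was higher in period 2 in all 4 cows, whichever diet they then had. CPT1B was lower in period 2 in all 4 cows, with a difference of -0.19 (SE 0.22, limma adjusted p = 0.807). Of all probes, 25.3% had 1 direction in all 4 cows by period. With cow as a block in the limma fit, added after the data were seen, the unadjusted p of the period difference was 0.0111 for ACADL and 0.111 for CPT1B. The differences of the other 4 genes lay between -0.19 and 0.09.

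The third comparison asked whether the diet difference was the same in both periods. Within a period the diets were fed to different cows, so this interaction is also a comparison of cows 1 and 2 with cows 3 and 4, and these cannot be told apart. No gene of the 6 met the thresholds for it, and 8.58% of all probes did. Within period 1 the CPT1B signal was higher on HC by 0.33, and within period 2 it was -0.30, HC minus LC. The interaction of CPT1B, period 2 minus period 1, was -0.63 (SE 0.44, limma adjusted p = 0.656). For ACADL the within-period differences were 0.11 and -0.49, with an interaction of -0.60 (SE 0.32, unadjusted limma p of 0.108). Without cow 4 on LC the ACADL interaction was -0.88 with an unadjusted limma p of 0.0212, past both thresholds, and no other array changed a call among the 6. For CPT2, ACADM, ACADVL and HADHA the interaction lay between -0.35 and 0.13.

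The neighbouring steps of fatty acid oxidation gave the same count for diet. Of 55 further genes in 5 lists, 35 had a probe and 34 of these were well above background on all arrays. None of the 35 met the thresholds for diet or for period. Their unadjusted limma p for diet ran from 0.136 to 0.970, their log2 differences from -0.26 to 0.17 with a median of -0.04, and 14 were higher and 21 lower on HC. None had diets that did not overlap. Of the 34 genes above background on all arrays, 4 had 1 direction in all 4 cows, against 11.0% of all probes.

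Fatty acids are activated and carried by acyl-CoA synthetases, transport proteins and the carnitine system, of which 10 of 13 genes had a probe. ACSL1, a main long-chain acyl-CoA synthetase, differed by -0.03 (HC minus LC, log2) and ACSL5, another, by 0.16. SLC25A20, the carnitine-acylcarnitine carrier between the CPT1 and CPT2 steps, differed by -0.13 (SE 0.11, limma p = 0.278, exact permutation p = 0.286). SLC22A5, which brings carnitine into the cell, differed by -0.04, and SLC27A2, a fatty acid transport protein with synthetase activity, by -0.26, the largest size among the 34 genes. The SLC27A2 value rested on single arrays: it was 0.03 without cow 1 on LC and -0.54 without cow 2 on LC, and HC was above LC in cow 2 by 0.65. The SLC27A2 interval was wide enough to hold a 1.5-fold fall, as the plot of diet differences shows. It was not alone in this. The ACSL5 interval, 0.76-fold to 1.64-fold, held a 1.5-fold rise, and the intervals of several others of the 34 genes also reached past 1.5-fold.

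In the other mitochondrial list 12 of 15 genes had a probe. ACAA2, the thiolase that ends a round for shorter chains, differed by -0.04. ECI1, which moves double bonds of unsaturated chains, differed by -0.01, and DECR1, the dienoyl-CoA reductase also needed for them, by -0.12. ACAD8 and ACAD9, further acyl-CoA dehydrogenases, differed by -0.15 and -0.12. ACADS, the short-chain dehydrogenase, had no matched probe. Of the electron transfer proteins that accept electrons from the dehydrogenases, only ETFB had a matched probe, and it differed by 0.07 (SE 0.16, limma p = 0.672, exact permutation p = 0.657).

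Entry into the pathway is controlled through malonyl-CoA, AMP-activated kinase and transcription coactivators, of which 4 of 11 genes had a probe. None of these 4 encodes an enzyme that makes or removes malonyl-CoA, so that part of the control is not covered. PRKAA1, a catalytic subunit of the kinase, differed by 0.17 (SE 0.11, limma p = 0.156, exact permutation p = 0.114) and PRKAG1, a regulatory subunit, by -0.11. ESRRA, an orphan nuclear receptor of oxidative metabolism, differed by -0.11 and was lower on HC in all 4 cows. Peroxisomes shorten very long and branched chains, and 8 of 13 genes of that list had a probe. ACOX2 differed by -0.16 and ACAA1, the peroxisomal thiolase, by -0.15, while HSD17B4, the D-bifunctional protein, differed by 0.12 and was higher on HC in all 4 cows. The probe of ABCD2 passed the background test on no array.

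**Figure D3:**
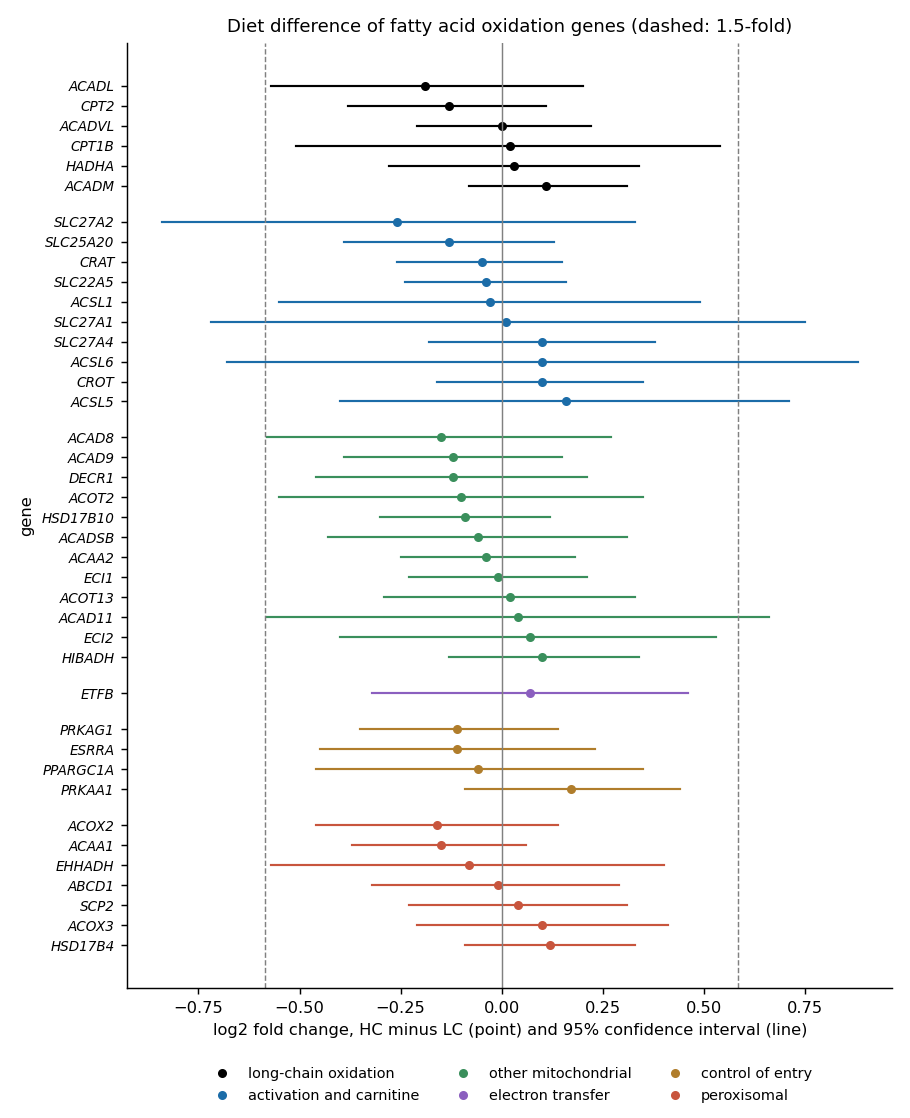
Log2 difference, HC minus LC (x axis, points), with its 95% confidence interval from limma (lines), for the 6 measured long-chain oxidation genes (black) and the 34 genes of the 5 neighbouring lists that were well above background on all arrays (y axis, coloured by list). Every interval includes 0, and those of the black genes stay inside the dashed lines at 1.5-fold, ACADL only narrowly.

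The neighbouring genes that met the thresholds did so between the pairs of cows. By the interaction, 7 of the 34 genes met both thresholds, where 8.58% of all probes did: SLC22A5, SLC27A4, CROT, ACADSB, ECI2, ACOX2 and ACOX3. The interaction equals 2 times the difference between the means of cows 1 and 2 and of cows 3 and 4. With the 1.5-fold threshold set on the difference of the cow pairs itself, a choice made after the data were seen, 2 of the 34 remained, SLC22A5 and ECI2, and 2.93% of all probes. Of these 7 genes, SLC27A4, CROT, ACADSB, ECI2 and ACOX3 fall outside the rule for named genes and were picked for their values. The adjusted p of the 7 genes was 0.130 or more by limma.

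SLC22A5 was lower in cows 1 and 2. Its log2 signal was 8.67 and 8.68 on LC and 8.59 and 8.46 on HC in these cows. In cows 3 and 4 it was 9.28 and 9.21 on LC and 9.34 and 9.29 on HC. The arrays of the cow pairs did not overlap, and 96.5% of the sum of squares lay between cows. The interaction was -1.36 (SE 0.17, limma adjusted p = 0.130), with an unadjusted p of 1.50e-04, and on the means of the 4 cows limma gave an unadjusted p of 0.00292.

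ECI2, a further enoyl-CoA isomerase, was higher in cows 1 and 2, where it gave 7.02 and 6.97 on LC and 7.60 and 6.85 on HC. Cows 3 and 4 gave 6.24 and 6.66 on LC and 6.45 and 6.25 on HC. The interaction was 1.43 (SE 0.39, limma adjusted p = 0.369), with an unadjusted p of 0.00938, and 0.0146 on the means of the 4 cows. The fatty acid transport protein SLC27A4 and the peroxisomal oxidase ACOX2 were also higher in cows 1 and 2, with interactions of 0.76 and 0.81. The carnitine octanoyltransferase CROT and ACADSB, a dehydrogenase of branched-chain breakdown, were lower there, with interactions of -0.77 and -0.99. Over all 34 genes the cow pairs did not overlap in 6, the genes above other than ACOX3, and over all probes in 5.63%. Since the interaction measures the same cow pairs, this is a description and not a second line of support. On the means of the 4 cows, 4 of the 34 genes met both thresholds, SLC22A5, ECI2, CROT and ACOX2, and 5.95% of all probes. The fit on cow means uses the same values of the same cow pairs, so its p values are no second line of support either.

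**Figure D4:**
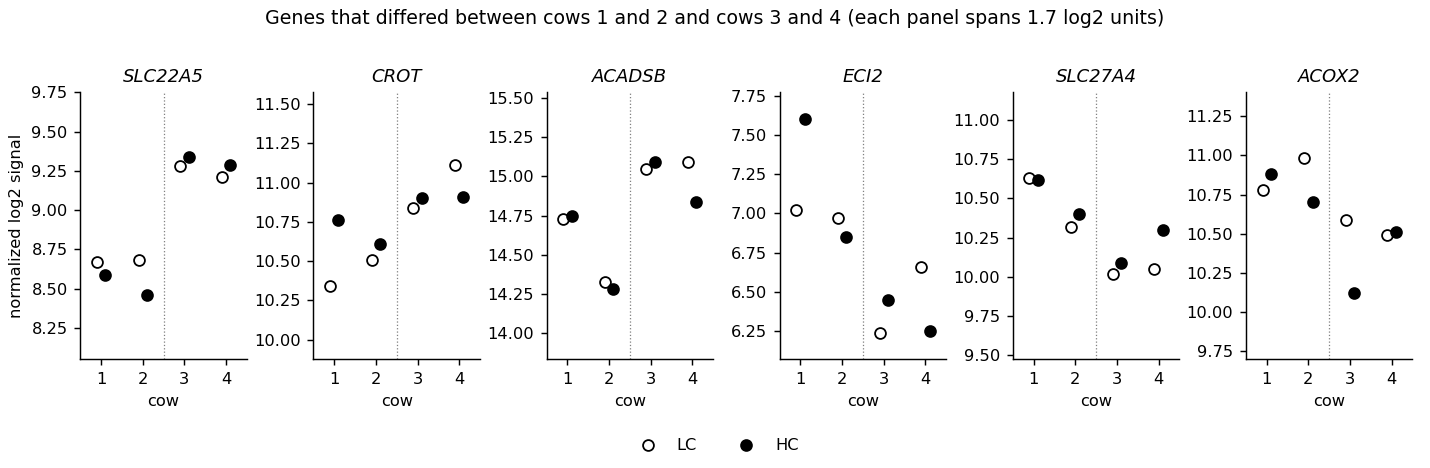
Normalized log2 signal (y axis) of 6 neighbouring genes that met the thresholds for the interaction and whose cow pairs did not overlap, by cow (x axis), with open circles for LC and filled circles for HC. Cows 1 and 2 lie on one side of the dotted line and cows 3 and 4 on the other, and in SLC22A5 they sit between 8.46 and 8.68 and between 9.21 and 9.34.

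The mean profile of the 6 measured genes, each centred on its own mean, was highest in cow 3, at 0.13 on LC and 0.16 on HC (log2). It was lowest in cow 1, at -0.13 on LC and -0.11 on HC. The other 4 arrays lay between -0.06 and 0.04. The genes were centred but not scaled, so those with the widest range weigh most. The 6 genes did not all follow this profile. On LC in cow 3, ACADL had its highest array, at 7.73, and ACADVL its lowest, at 14.81. The genes with the most similar profile among 6463 candidates were PLIN2, CHN2 and EIF4A2, each with Pearson r = 0.98 over the 8 arrays, and POLR1E and CDH6 with r = 0.97. These values come from 8 arrays of 4 cows that are not independent, and they are a description. They were picked as the highest of 6463, and how high an r such a search gives without any relation was not tested.

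Genes of other cell types gave the following values beside these results. The 3 measured leukocyte markers, CD3E, CD14 and CD68, had a higher mean on HC, by 0.30, 0.31 and 0.14. They did not meet the thresholds (unadjusted limma p of 0.0759 to 0.463). Each was higher on HC in 3 of the 4 cows. HC minus LC was -0.42 for CD3E in cow 4, -0.14 for CD14 in cow 3 and -0.55 for CD68 in cow 4. The period difference of CD3E was 0.50 (SE 0.14, limma adjusted p = 0.247), with an unadjusted p of 0.0112. Of the CD3E sum of squares, 58.0% lay between periods and 20.7% between diets. The mean log2 level of the 3 markers ran from 7.57 to 7.88 over the LC arrays and from 7.69 to 8.40 over the HC arrays. The mean of the 7 smooth muscle markers ran from 10.99 to 11.49 on LC and from 11.08 to 11.48 on HC. Of the 6 skeletal or cardiac muscle markers, CKM, MYH7, TNNT1 and MB were well above background on all arrays, with none past the thresholds for diet, period or the interaction, and ACTA1 and MYL2 on no array. Between the periods, the adipocyte marker PLIN1 was higher in period 2 by 0.74 (SE 0.15, limma adjusted p = 0.144), with an unadjusted p of 0.00244. The adipocyte marker LEP met the thresholds for period in the opposite direction. Its difference, period 2 minus period 1, was -0.90 (SE 0.15, limma adjusted p = 0.117), with an unadjusted p of 9.19e-04. LEP was well above background on the 4 arrays of period 1 and on none of period 2. The remaining adipocyte marker with a probe, CIDEC, differed by 0.06 and was well above background on no array. For the interaction, the smooth muscle marker ACTG2 met the thresholds, at 1.01 with an unadjusted limma p of 0.0407. No other marker gene met the thresholds for either. The part of these cells in the values above was not tested.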

How the data were processed

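RNA from rumen papillae of 4 cows on both diets was measured on 8 arrays. For each array the authors deposited scanner output (Agilent Feature Extraction 10.7.3.1) with a background-subtracted intensity per spot, and they also deposited a table of quantile-normalized log2 values. In that table the columns of cows 1 and 2 match the scanner output of the other of these cows on both diets (r = 0.999, against 0.994 to 0.995 under the same name). Since both cows had the same order of diets, this exchanges their names and changes no test.

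Outlier spots, 0 to 13 per array, were left out, and no spot was saturated. Log2 intensities were quantile-normalized and spots averaged per probe. Diet, period and their interaction were fitted over all 21475 probes in limma 3.58.1 (R 4.3.3), without trend and without a term for cow, with Benjamini-Hochberg adjustment. The fit had 4 residual and 2.26 prior degrees of freedom, and was tested on simulated data. The simulated arrays were independent, with no effect of cow, so this could not check the p values for the present design. Signal over background stands in for depth, and the number of arrays limits precision. Of 10176 probes with a RefSeq accession, 8297 were named. The brightest probe stands for a gene. Neighbouring genes named in the text were fixed partners of the pathway or the 3 largest diet differences of each list, and the 5 most similar profiles, besides marker genes and genes singled out, after their values were seen, for passing the interaction thresholds or failing the background test. The deviations of the 2 arrays of a cow from their diet means correlated across probes (r = 0.285, 0.298, 0.467 and 0.113 in cows 1 to 4). Between different cows r ran from -0.237 to 0.185, so the value of cow 4 does not set its pair apart. The labels give both arrays to 1 cow, and the samples were paired by these cow numbers. Plots were made with matplotlib 3.10.9 (Python 3.11.15). The genes and lists were chosen with earlier results of these data known. Alternatives were another scaling, normexp on the median signals, the deposited table, a filter on dim probes, an unmoderated linear model, limma-trend, other model terms, the cow as a block, the mean of a gene's probes and leaving out each array. Promoter and protein sequences are not analysed here.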

Additional observations from a re-analysis of the deposited data

Results flagged for a closer look

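Of 58 sets of 4 arrays, each 1 probe on 1 diet, 3 had an array far from the others by Dixon's test, and chance gives about 1 in 20. These were CPT2 in cow 4 on LC, at 12.45, the dimmer HADHA probe in cow 3 on HC, at 11.66, and DECR1 in cow 3 on LC, at 13.68. The array of cow 3 on HC was also the highest on the brighter HADHA probe.

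In CPT1B and ACADL the diet difference went one way in cows 1 and 2 and the other way in cows 3 and 4. The mean HC minus LC of cows 1 and 2 minus that of cows 3 and 4 was -0.38 for CPT1B and 0.73 for ACADL. This difference is 2 times the period difference, whose limma p was 0.422 and 0.0596.

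The diet difference in period 2 minus that in period 1 met the thresholds in 7 neighbouring genes. It was -1.36 for SLC22A5, 1.43 for ECI2, -0.99 for ACADSB, 0.81 for ACOX2, -0.77 for CROT, 0.76 for SLC27A4 and -0.64 for ACOX3, with unadjusted limma p of 1.50e-04, 0.00938, 0.0173, 0.0156, 0.00961, 0.0157 and 0.0457. It cannot be told apart from a difference between the cow pairs. These p values count the 2 arrays of a cow as independent. On the means of the 4 cows, SLC22A5, ECI2, CROT and ACOX2 met both thresholds and ACADSB, SLC27A4 and ACOX3 did not.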

How the results depend on the processing

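Diet differences of the 6 genes were recomputed under 20 alternatives, and 0 of the 120 values met both thresholds. They ran from -0.33 to 0.19, and the smallest unadjusted p was 0.0134, for ACADM in the unmoderated linear model. With a replicate block of cow, fixed or random, 0 of the 6 genes met the thresholds, the p of ACADL for diet was 0.0905 with period in the model, and the block changed no call. The sign near 0 was not stable. ACADVL was at -0.04 with 75th percentile scaling and -0.01 with normexp, and leaving out 1 array gave -0.04 to 0.05 for ACADVL, -0.16 to 0.19 for CPT1B, -0.08 to 0.14 for HADHA, -0.21 to -0.06 for CPT2, -0.33 to -0.05 for ACADL, 0.09 to 0.13 for ACADM and -0.09 to 0.07 for the median of the 6. Leaving out 1 array gave 0 to 1 of the 6 genes past the thresholds for the interaction, the 1 being ACADL without cow 4 on LC. Among the 34 neighbouring genes the interaction count of 7 became 4 to 10, lowest without cow 1 on HC and highest without cow 4 on LC, 4 on cow means and 2 with the threshold on the cow pairs. SLC22A5, ECI2 and CROT kept their call under all 16 of their alternatives, ACADSB under 12, ACOX2 under 14, SLC27A4 under 13 and ACOX3 under 6. These 16 leave out the threshold on the cow pairs, which only SLC22A5 and ECI2 passed. The count of all probes for diet, 198, was 8 with normexp, 415 in the deposited table, 75 after the filter on dim probes, 105 without moderation and 239 to 404 without 1 array. The cause was not tested.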
